A study of Homo sapiens with 4 samples.

Results

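The NF-kB-driven chemokines and cytokines described here are 10 genes: the CXC chemokines CXCL1, CXCL2, CXCL3, CXCL5 and CXCL8, the CC chemokine CCL20, the colony-stimulating factors CSF2 and CSF3, and the IL6-family cytokines IL6 and LIF. The genes were chosen with earlier results of these data known. Their probes were taken by name, as every probe whose accession belongs to 1 of these genes. This gave 14 of the 34127 distinct probes on the array. CXCL1, CXCL2, CSF3 and LIF had 2 probes each and the other 6 genes had 1. At their brightest probe, all 10 were among the 23484 genes tested. SAS is a cell line from a squamous cell carcinoma of the human tongue. SB cells are SAS cells that stably carry the lentiviral vector pLKO.1 with LYRIC shRNA-B, which is directed against AEG-1 (also called LYRIC, gene symbol MTDH), and SCt cells are SAS cells with the control, which is the pLKO.1 vector in the labels and a scrambled shRNA in the study's methods. Both lines had gone through puromycin selection (2 μg/ml for 14 days) as stable clones, so each genotype is 1 selected line. RNA of the 2 lines was hybridized together on each of 4 Agilent arrays, SB cells always in red and SCt cells always in green, so that a probe's own preference for a dye and the effect of the knockdown cannot be told apart. The labels call the arrays biological replicates. The study's methods give independent biological replicates for its in vitro comparisons in general, in a number that is not that of the arrays, and do not say how the RNA of each array was obtained. If the arrays do not come from separate cultures, the p-values measure only the spread between these arrays.

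NF-kB is a family of dimeric transcription factors, of which p65 (RelA) is a main activating subunit. Inhibitory IkB proteins hold the dimers in the cytoplasm until a kinase complex marks the inhibitors for destruction, after which the dimers bind kappaB sites in promoters. Chemokine and cytokine genes are among the classical NF-kB targets of epithelial cells, and squamous carcinoma cells often secrete their products without any outside stimulus. CXCL1, CXCL2, CXCL3, CXCL5 and CXCL8 attract neutrophils through the receptors CXCR1 and CXCR2, CCL20 attracts lymphocytes and dendritic cells through CCR6, CSF2 and CSF3 drive the production of myeloid cells, and IL6 and LIF signal through the shared receptor chain IL6ST to STAT3. The study asked which genes follow AEG-1 in these cells and examined phosphorylation of p65, so these targets bear on the same question at the level of RNA.

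The promoters of the genes are shown first, because their likeness played no part in choosing the genes. CXCL8, CXCL1, CXCL5, CXCL3 and CXCL2 lie in this order in 1 stretch of chromosome 4, with CXCL6, PF4V1, PF4 and PPBP between them. The RefSeq promoter table (GRCh38.p14) held 8 of the 10 genes. CSF3 and LIF had no entry. Each line gives the 120 bases that end just before the transcription start, 5′ to 3′ on the gene's strand, and capitals mark matches to the kappaB motif on either strand. The first 3 are shown because they are nearly identical, and the next 2 because they complete the CXC group. The last 2 are shown for comparison, CCL20 for its lower level in SB cells and IL6 because it did not pass the test.
CXCL1: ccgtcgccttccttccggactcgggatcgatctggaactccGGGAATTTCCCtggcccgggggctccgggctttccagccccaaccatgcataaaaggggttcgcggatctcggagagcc
CXCL2: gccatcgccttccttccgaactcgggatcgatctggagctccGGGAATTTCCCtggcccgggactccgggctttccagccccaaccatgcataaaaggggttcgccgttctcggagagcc
CXCL3: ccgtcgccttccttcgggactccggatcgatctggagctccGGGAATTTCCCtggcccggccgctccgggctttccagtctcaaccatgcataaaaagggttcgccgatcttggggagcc
CXCL5: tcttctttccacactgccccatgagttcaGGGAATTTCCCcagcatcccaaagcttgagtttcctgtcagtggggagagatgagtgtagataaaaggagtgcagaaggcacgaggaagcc
CXCL8: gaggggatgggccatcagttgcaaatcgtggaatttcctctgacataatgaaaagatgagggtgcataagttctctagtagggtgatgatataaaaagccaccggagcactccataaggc
CCL20: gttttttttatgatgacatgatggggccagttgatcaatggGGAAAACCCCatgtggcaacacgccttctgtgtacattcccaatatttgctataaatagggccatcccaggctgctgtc
IL6: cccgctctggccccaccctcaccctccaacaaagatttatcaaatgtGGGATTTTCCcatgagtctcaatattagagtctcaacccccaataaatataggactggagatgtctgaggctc
These windows are chr4:73869273-73869392 (plus strand) for CXCL1, chr4:74099196-74099315 (minus) for CXCL2, chr4:74038690-74038809 (minus) for CXCL3, chr4:73998678-73998797 (minus) for CXCL5, chr4:73740449-73740568 (plus) for CXCL8, chr2:227813722-227813841 (plus) for CCL20 and chr7:22727080-22727199 (plus) for IL6.

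The kappaB motif was matched on both strands in the 250 bases before the start of 35116 promoters, 5.21% of which held it. Of the 8 genes with an entry, 6 held it: CXCL1, CXCL2, CXCL3, CXCL5, CCL20 and IL6. This count tests nothing, since the genes were taken as NF-kB-driven, and the windows of CXCL1, CXCL2 and CXCL3 are nearly identical. In CXCL1 and CXCL3 the match on the gene's strand began 79 bases before the start, in CXCL2 78 and in CXCL5 91. Each of these matches overlapped a second one on the other strand and is counted once. CXCL8 and CSF2 held no match with these letters. The longest run common to the windows of the 5 CXC genes was ggaatttcc, of 9 bases, which 0.413% of all promoters held on either strand. Over the 120 bases, CXCL1 was 93.4% identical to CXCL2 and 90.8% to CXCL3, but 51.9% to CXCL5 and 42.9% to CXCL8. The AP-1 motif TGANTCA, also searched on both strands, was found in CXCL8 alone of the 8 and in 6.57% of all promoters. These matches describe letters in a window and do not show binding in SAS cells.

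On these arrays, AEG-1 itself was at −3.18, −3.01, −3.12 and −3.41 as log2 ratio of SB over SCt cells (mean −3.18 ± 0.17, SD, n = 4 arrays; limma, adjusted p = 5.19e-10), which is the direction given by the labels. The median intensity of an array was 655 to 875 in the channel of SB cells and 362 to 588.5 in that of SCt cells, and 84.7% to 90.3% of spots were well above background in a channel. All 7 squamous epithelial markers (KRT5, KRT14, KRT17, KRT6A, TP63, CDH1 and SFN) were well above background in SCt cells on all 4 arrays, with a summed signal over background of 89016 to 178995. Markers of other cells were also above background: 4 of 6 leukocyte genes (PTPRC, CD14, CD68 and CD3E), 2 of 5 fibroblast genes (COL1A1 and DCN) and 4 of 4 endothelial genes (PECAM1, VWF, CDH5 and KDR). MS4A1, COL3A1 and LUM were so on no array. The summed signals were 16515 to 25096 for leukocyte, 3723 to 6781 for fibroblast and 854 to 1428 for endothelial genes. The lists differ in their genes and probes, so these sums do not measure how much of a cell type was present.

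Of the 10 chemokine and cytokine genes, 4 were lower in SB cells and none was higher at an adjusted p of 0.05 from limma: CXCL1, CXCL2, CXCL8 and CCL20, all of them chemokines. Among all 23484 genes, 2.26% were called lower and 1.26% higher. The 10 genes were chosen with earlier results of these data known, so the count describes them and is no test of the group. CXCL1 and CXCL2 are close paralogues, and cross-hybridisation between them was not tested, so their calls may not be independent. The median log2 ratio of the 10 genes was −0.21, against 0.01 for all genes, and on the single arrays it was −0.11, −0.22, −0.16 and −0.20, against 0.00 to 0.02. The sizes were moderate. At the brightest probes the 4 genes were 1.23- to 1.41-fold lower, and at the dimmer probes of CXCL1 and CXCL2 the fall reached 1.81-fold. RNA was measured from whole cultures, so fewer cells that make a transcript and less RNA per cell cannot be told apart.

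**Figure D1:**
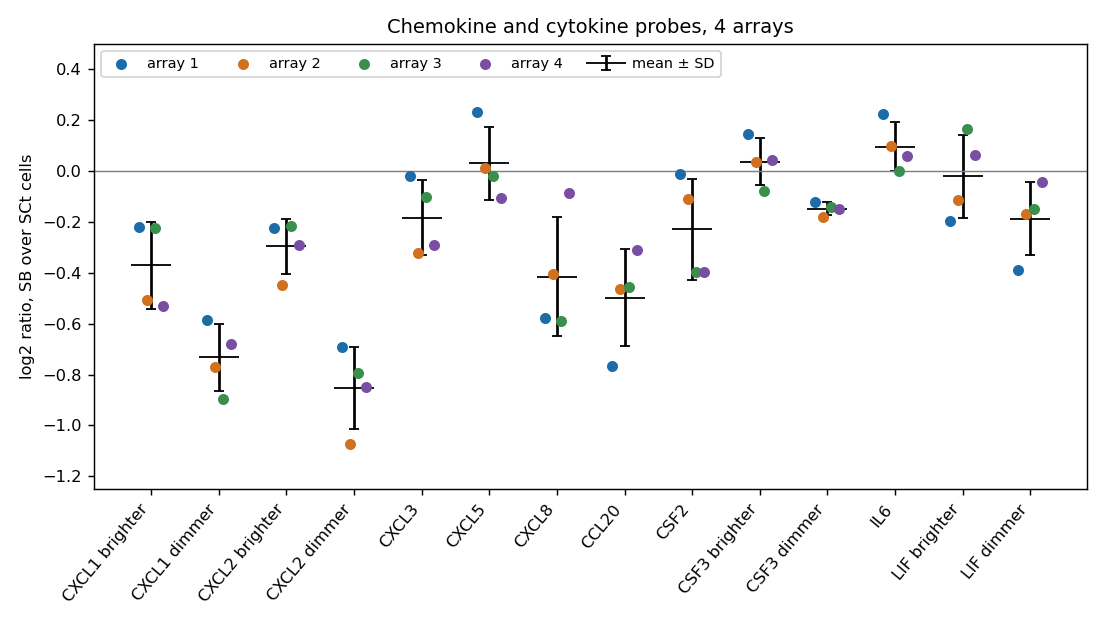
Log2 ratio of SB over SCt cells (vertical axis) at each of the 14 probes of the 10 genes, with 1 point per array, the mean as a horizontal bar and the SD over 4 arrays as whiskers. All points of CXCL1, CXCL2, CXCL8 and CCL20 lie below 0, with the dimmer probes of CXCL1 and CXCL2 lowest, whereas the points of CXCL5, IL6 and the brighter probes of CSF3 and LIF lie on either side of 0.

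The level of a gene is given as the intensity of its probe in the channel of SCt cells, and since probes differ in their response, levels are compared between cell lines but not between probes. CXCL1, a neutrophil chemokine also known as a growth factor of melanoma cells, was read by a brighter probe (A_33_P3330264) and a dimmer one (A_23_P7144). At the brighter probe the signal in SCt cells was 1168, 1590.5, 2717 and 2704.5 on arrays 1 to 4, over a local background of 22 to 29. The log2 ratios were −0.22, −0.51, −0.22 and −0.53, and their mean, −0.37 ± 0.17 (SD, n = 4 arrays), puts SB cells 1.29-fold below SCt cells (limma, adjusted p = 0.0128). All arrays were below 0, and arrays 2 and 4 lay lower than arrays 1 and 3. At the dimmer probe, with signals of 297, 430, 581.5 and 758.5 in SCt cells, the log2 ratios were −0.59, −0.77, −0.90 and −0.68. Their mean, −0.73 ± 0.13 (SD, n = 4 arrays), puts SB cells 1.66-fold below SCt cells (limma, adjusted p = 9.21e-05). No array at the dimmer probe was as high as any array at the brighter one.

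CXCL2, a close paralogue of CXCL1, gave the same picture with a wider gap between its probes. The brighter probe (A_24_P257416) had a signal of 3104, 3782.5, 4772 and 4508.5 in SCt cells and log2 ratios of −0.22, −0.45, −0.22 and −0.29. The mean was −0.29 ± 0.11 (SD, n = 4 arrays), 1.23-fold lower in SB cells (limma, adjusted p = 0.0199). The dimmer probe (A_23_P315364) had signals of 1092, 1786.5, 2098 and 1369 and log2 ratios of −0.69, −1.07, −0.79 and −0.85. Here the mean was −0.85 ± 0.16 (SD, n = 4 arrays), 1.81-fold lower in SB cells (limma, adjusted p = 4.34e-05). The arrays of the 2 probes did not overlap, and array 2 was lowest at either probe. After normalization, the level of this dimmer probe in SB cells was nearly the same on all arrays, at 10.11 ± 0.06 on the log2 scale of intensity, whereas in SCt cells it was 10.96 ± 0.17 (SD, n = 4 arrays each).

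CXCL3, the third of the closely related genes and an attractant of neutrophils as well, was read by 1 weak probe. Its signal in SCt cells was 79, 95, 122 and 95 over a local background of 25 to 33. The log2 ratios were −0.02, −0.32, −0.10 and −0.29, with a mean of −0.18 ± 0.15 (SD, n = 4 arrays), which did not pass the test (limma, adjusted p = 0.152). All arrays were below 0, and arrays 2 and 4 were again the lowest, as at the brighter probe of CXCL1. The 95% interval of −0.33 to −0.04 reaches from almost no difference to the size seen at the brighter probe of CXCL2. By the scanner software's ratios, which were 0.18, −0.61, −0.26 and −0.46, array 1 of CXCL3 lay above 0.

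**Figure D2:**
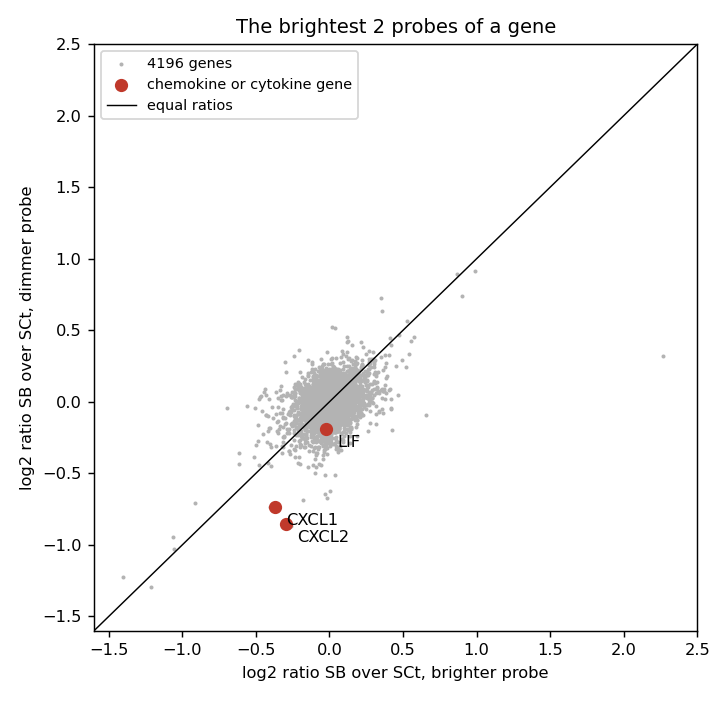
Log2 ratio of SB over SCt cells at the dimmer (vertical axis) against the brighter (horizontal axis) of the brightest 2 probes of 4196 genes (grey), with the black line marking equal ratios. CXCL1, CXCL2 and LIF (red) lie below the line, at dimmer-probe ratios of −0.73, −0.85 and −0.19.

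Whether the probes of a gene agreed was tested over all 4196 genes with at least 2 probes past the filter, as the difference of the dimmer minus the brighter of the brightest 2. The median size of this difference was 0.08, and it was over 0.3 in 3.86% of genes. For CXCL2 it was −0.47, −0.62, −0.58 and −0.56 on arrays 1 to 4, on average −0.56 ± 0.07 (SD, n = 4 arrays, adjusted p of 0.00487 from limma), and 0.691% of all genes passed this test. Only 0.238% of genes had a larger difference in either direction. For CXCL1 the difference was −0.37, −0.26, −0.67 and −0.15, a mean of −0.36 ± 0.22 (SD, n = 4 arrays), which did not pass (limma, adjusted p = 0.0737). LIF had −0.17 ± 0.11 (SD, n = 4 arrays; limma, adjusted p = 0.196). Thus the direction was the same at both probes of CXCL1 and CXCL2, and for CXCL2 the size of the fall differed between its probes. Probe sequences were not used here, and cross-hybridisation among CXCL1, CXCL2 and CXCL3 was not tested.

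CXCL5 did not show the lower level of CXCL1 and CXCL2. It shares the 11 bases GGGAATTTCCC of its promoter with CXCL1, CXCL2 and CXCL3, but whether these bases bear on the ratios was not tested. Its signal in SCt cells was 698.5, 721, 1174 and 1012.5. The log2 ratios were 0.23, 0.01, −0.02 and −0.10, with a mean of 0.03 ± 0.14 (SD, n = 4 arrays; limma, adjusted p = 0.849). These arrays lie on either side of 0, and the 95% interval of −0.11 to 0.17 holds none of the means of CXCL1, CXCL2 or CXCL8. CXCL6, a further neutrophil chemokine of the same stretch of chromosome 4, was close to background. Its signal in SCt cells was 62, 67.5, 83 and 67 over a local background of 28.5 to 33. The log2 ratios of CXCL6 were 0.05, 0.15, 0.19 and 0.28. Their mean of 0.17 ± 0.10 (SD, n = 4 arrays) did not pass (limma, adjusted p = 0.149) and turned to −0.12 under median centring.

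CXCL8, better known as interleukin-8 and the main neutrophil attractant of human epithelia, was close to background. Its signal in SCt cells was 101, 125, 132.5 and 131, which is 3.61 to 4.30 times the local background. The log2 ratios were −0.58, −0.40, −0.59 and −0.09, with a mean of −0.42 ± 0.23 (SD, n = 4 arrays), 1.33-fold lower in SB cells (limma, adjusted p = 0.0152). Array 4 lay well above the others but below 0. The scanner software's ratios, which subtract the background without an offset, were −1.19, −0.80, −0.96 and −0.27 at this probe, with a mean of −0.81. The direction of CXCL8 was thus the same on all arrays by either measure, while its size depended on how the background was treated.

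CCL20, the ligand of CCR6, had the lowest ratio of the 10 genes at their brightest probes. Its signal in SCt cells was 287, 631, 584.5 and 204 over a local background of 22 to 27.5. The log2 ratios were −0.76, −0.46, −0.45 and −0.31, a mean of −0.50 ± 0.19 (SD, n = 4 arrays), 1.41-fold lower in SB cells (limma, adjusted p = 0.00325). All arrays were below 0, with array 1 lowest. The level itself varied between arrays by more than the ratio did, from 8.26 to 9.70 in SCt and from 7.95 to 9.24 in SB cells on the log2 scale of intensity, so that the levels of the lines overlapped while each array's own ratio was negative.

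**Figure D3:**
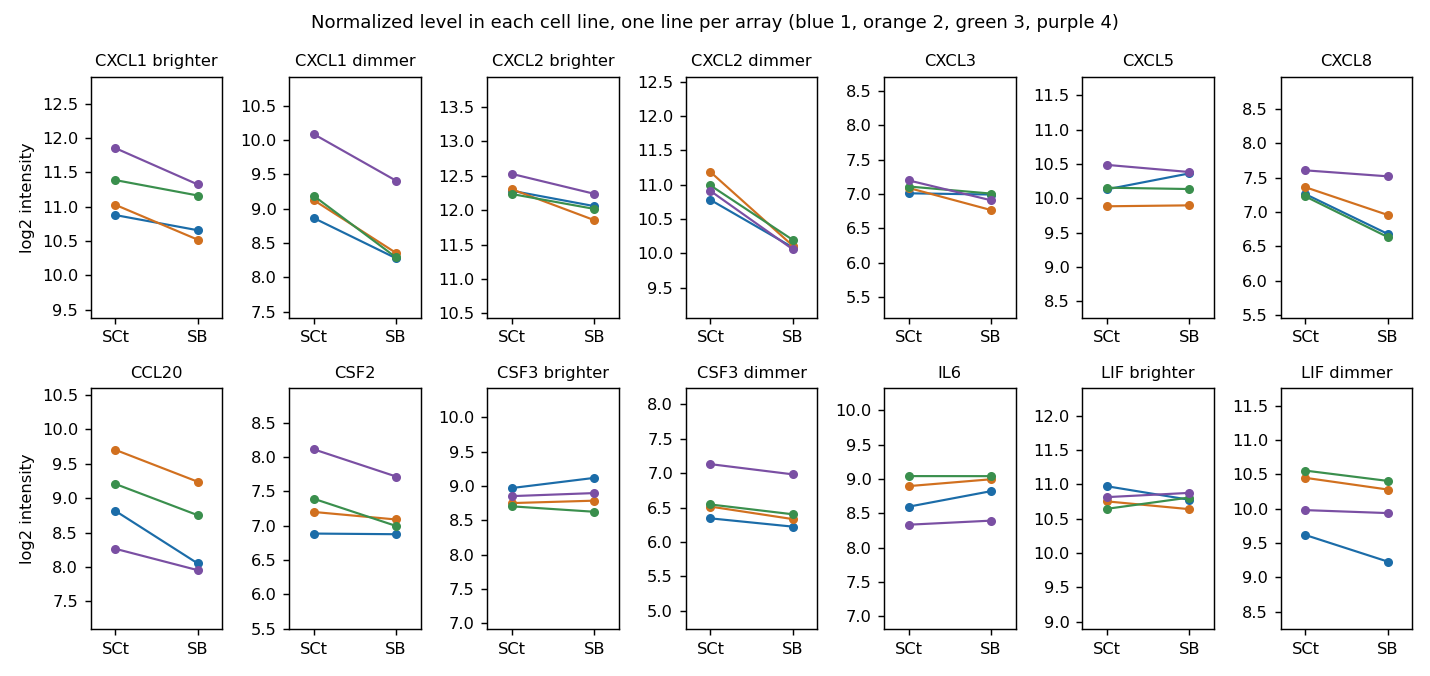
Normalized log2 intensity (vertical axis, a span of equal size in each panel) at the 14 probes in SCt and SB cells, with 1 line per array. The lines of CXCL1, CXCL2, CXCL8 and CCL20 slope downwards to SB cells on all 4 arrays, and those of the dimmer CXCL2 probe meet at about 10.11 in SB cells.

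The colony-stimulating factors and the IL6-family cytokines did not pass the test at any probe with all 4 arrays. CSF2, which stimulates granulocytes and macrophages, had a signal of 74, 102, 147 and 185 in SCt cells and log2 ratios of −0.01, −0.11, −0.40 and −0.40. Its mean was −0.23 ± 0.20 (SD, n = 4 arrays; limma, adjusted p = 0.117), with all arrays below 0 and array 1 almost at 0. By the scanner software's ratios the mean of CSF2 was −0.42 (limma, adjusted p = 0.0303), and under median centring it was −0.40 (limma, adjusted p = 0.00168), so its call depended on the processing. CXCL3 also passed under median centring (−0.40; limma, adjusted p = 0.00295) but not by the software's ratios (−0.29; limma, adjusted p = 0.231). Median centring called 8937 of all 28505 probes.

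CSF3, the factor for neutrophil production, was read by a brighter probe with 308, 326, 401 and 316 in SCt cells and log2 ratios of 0.15, 0.03, −0.08 and 0.04. The mean was 0.04 ± 0.09 (SD, n = 4 arrays; limma, adjusted p = 0.788). Its dimmer probe (A_23_P501754) was the only one of the 14 that did not pass the filter on dim probes, being well above background on 3 arrays in SCt and on 2 in SB cells. There the log2 ratios were −0.12, −0.18, −0.14 and −0.15, and with no filter the mean was −0.15 ± 0.03 (SD, n = 4 arrays; limma, adjusted p = 0.157). These ratios were small and close to each other at signals of 50 to 90, where the offset of 50 weighs most, and the software's ratios at this probe ran from −1.11 to −0.27.

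IL6, the cytokine that acts on STAT3, was spotted 10 times on each array, the others once. Its mean signal in SCt cells was 248, 359, 535 and 211. The log2 ratios were 0.23, 0.10, 0.00 and 0.06, a mean of 0.10 ± 0.10 (SD, n = 4 arrays; limma, adjusted p = 0.415). The SD between single spots within an array was 0.06, 0.07, 0.07 and 0.11, whereas the value of an array is a mean over 9 or 10 spots. The 95% interval of IL6 was −0.03 to 0.22, which holds no fall of the size found for the 4 chemokines. LIF, which keeps stem cells undifferentiated and belongs to the same family, had a brighter probe with log2 ratios of −0.20, −0.11, 0.16 and 0.06 that averaged −0.02 ± 0.16 (SD, n = 4 arrays, with 0.904 as adjusted p from limma). At its dimmer probe they were −0.39, −0.17, −0.15 and −0.04, with a mean of −0.19 ± 0.14 (SD, n = 4 arrays; limma, adjusted p = 0.142). This dimmer LIF probe passed without array 4 (−0.24; limma, adjusted p = 0.0384). Array 1 was lowest at either LIF probe but highest for IL6, CSF3 and CXCL5.

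**Figure D4:**
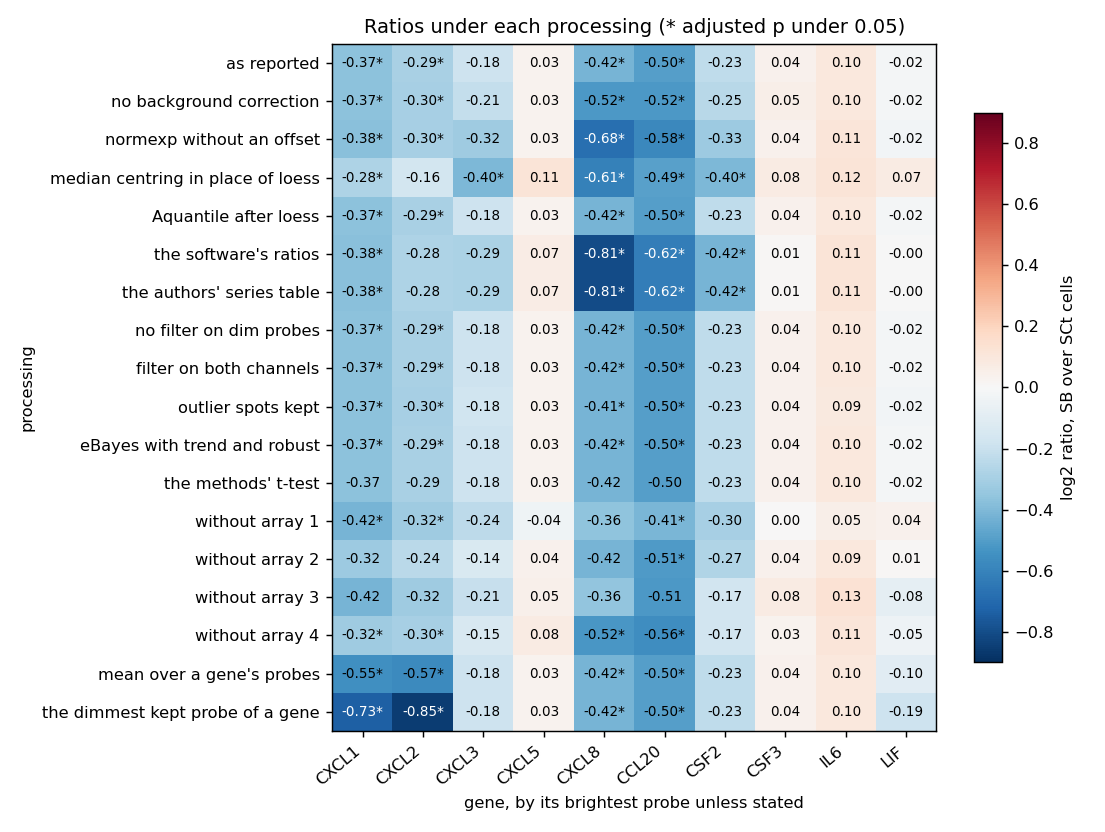
Log2 ratio of SB over SCt cells of the 10 genes (columns) under each processing (rows), with an asterisk where the adjusted p is under 0.05. CXCL1, CXCL2, CXCL8 and CCL20 are negative in every row, though without an asterisk in the row of the methods' t-test and in that without array 3. CXCL1, CXCL2 and CXCL8 also lack it without array 2, and CXCL8 without array 1. CXCL2 lacks it under median centring, by the software's ratios and in the series table too. CXCL5, CSF3, IL6 and LIF carry none in any row.

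All 4 called genes were below 0 on every array, but their calls depended on which arrays were kept. Without array 3, 0 of the 10 genes passed at their brightest probe (limma, adjusted p = 0.0613 for CCL20, 0.0686 for CXCL1, 0.0981 for CXCL2 and 0.171 for CXCL8). Calls fell over the whole array too, where 136 probes were then called lower, against 679 with all 4 arrays. Without array 2, only CCL20 of the 10 passed. Without array 1, CXCL8 alone of the 4 lost its call (−0.36; limma, adjusted p = 0.0662). The dimmer probes of CXCL1 and CXCL2 passed with any 1 array left out, with adjusted p-values of at most 0.00754 from limma. By the methods' t-test, adjusted over all probes, 0 of the 10 genes and 0 of all probes passed (4 of the 10 and 3936 probes had an unadjusted p under 0.05).

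The members' surroundings were described by lists of related genes. Of 36 other chemokine ligands, 28 were tested and 0 passed in limma, against 2.26% of all genes called lower and 1.26% higher. An unadjusted p under 0.05 was found for 3 of the 28, both in limma and by the methods' t-test. In limma, 4260 of all 23484 genes had such a p. The median log2 ratio of the 28 ligands was 0.02, with a range of −0.16 to 0.17. Under median centring 7 of them passed, 4 lower and 3 higher, when 8937 of all 28505 probes were called (3338 lower and 5599 higher). Of 29 other cytokines, 26 were tested, and 3 fell and none rose, against 2.26% of all genes called lower. Under median centring 5 were called lower and 4 higher, beside the same counts over all probes. By normexp without an offset 2 were called lower and 1 higher, with 543 of all 28505 probes called lower and 274 higher. The 3 that fell in the reported fit were IL1B, LTB and CLCF1. The pro-inflammatory IL1B was at −0.47 ± 0.10 (SD, n = 4 arrays; limma, adjusted p = 0.00148). LTB, a subunit of lymphotoxin, was at −0.29 ± 0.07 (SD, n = 4 arrays; limma, adjusted p = 0.0157). Its signal in SCt cells was weak, at 83, 151, 124 and 113 over a local background of 24 to 28.5. The size of its fall depended on the background treatment, being −0.45 by normexp without an offset. CLCF1, another cytokine of the IL6 family, was at −0.29 ± 0.13 (SD, n = 4 arrays; limma, adjusted p = 0.0295).

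Of 10 genes for receptors of these ligands, 9 were tested, ACKR1 being too dim. Of these, 1 fell and none rose, against 2.26% of all genes called lower and 1.26% higher. LIFR, the receptor chain that pairs with IL6ST for LIF and some related cytokines, had log2 ratios of −0.35, −0.39, −0.49 and −0.39, a mean of −0.40 ± 0.06 (SD, n = 4 arrays; limma, adjusted p = 0.00234), with the arrays close together. IL6ST, the chain that IL6 and LIF share, had 0.22 ± 0.20 (SD, n = 4 arrays; limma, adjusted p = 0.125). Under median centring IL6ST was at 0.32 and passed (limma, adjusted p = 0.0111). The other 7, CXCR1, CXCR2, CCR6, CSF2RA, CSF2RB, CSF3R and IL6R, lay between −0.02 and 0.12 and did not pass in the reported fit. Under median centring 4 of the 9 receptors passed, 2 lower and 2 higher, when 8937 of all 28505 probes were called.

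Within the NF-kB pathway, 4 of 16 tested genes fell and none rose, against 2.26% of all genes called lower, with a list median of −0.10. Under median centring 4 were called lower and 2 higher, beside 3338 and 5599 of all 28505 probes, and the list median was 0.0095. In the reported fit, 2 of the 4 were CHUK and IKBKB, kinases that release NF-kB (−0.33 and −0.24, with adjusted p-values of 0.0199 and 0.0462 from limma). The others were TNFAIP3 and CYLD, deubiquitinases that restrain it (−0.48 and −0.40, with adjusted p-values of 0.00843 and 0.00228 from limma). TNFAIP3, itself an NF-kB target, was at −0.60 on 3 arrays and at −0.11 on array 4. Of 7 regulators of cytokine transcript decay, 1 fell and none rose, against 2.26% of all genes called lower and 1.26% higher. It was ZFP36, which binds AU-rich transcripts of this kind and promotes their decay (−0.33 ± 0.14, SD, n = 4 arrays; limma, adjusted p = 0.0175). Under median centring ZFP36 was at −0.19 and no longer passed (limma, adjusted p = 0.0622), and 1 other gene of the list was called higher. HNRNPD, from the same list, passed only at a probe other than its brightest (−0.32 ± 0.12, SD, n = 4 arrays; limma, adjusted p = 0.0149). Of 6 STAT3 outputs, 0 passed in limma, against 2.26% of all genes called lower and 1.26% higher. An unadjusted p under 0.05 was found for 1 of the 6 in limma and for 0 by the methods' t-test. In limma, 4260 of all 23484 genes had such a p. The median of the 6 was 0.02.

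**Figure D5:**
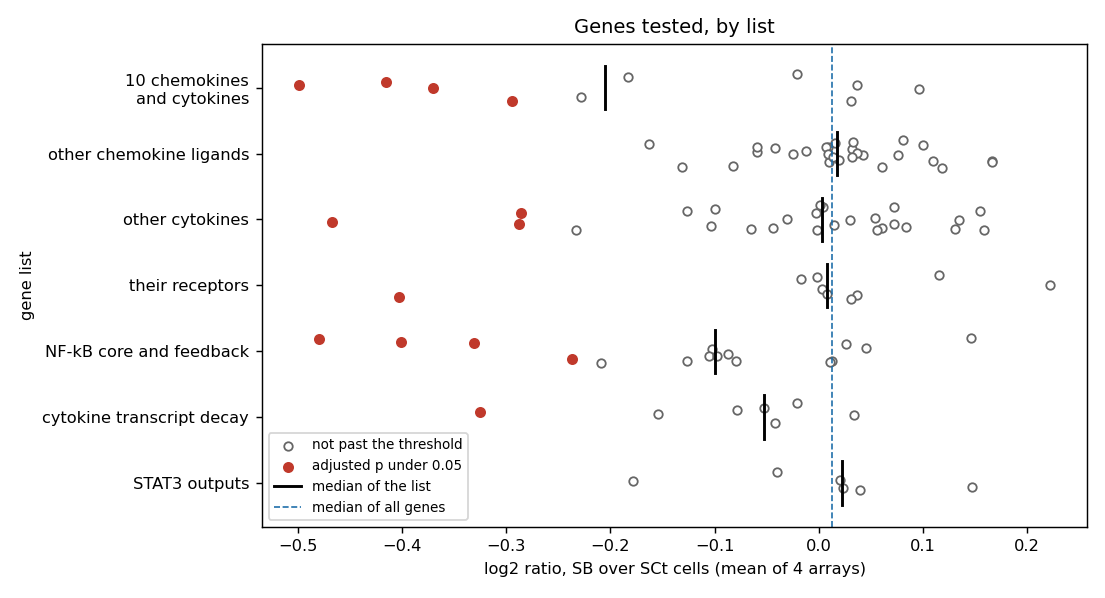
Mean log2 ratio of SB over SCt cells (horizontal axis) of each tested gene by list, with filled red points for an adjusted p under 0.05, black bars for the list medians and a dashed line for the median of all genes (0.01). The median of the 10 chemokines and cytokines (−0.21) and that of the NF-kB pathway (−0.10) lie to the left of this line, whereas the other chemokine ligands (0.02) lie close to it.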

How the data were processed

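Per the labels, RNA of SB cells was labelled red and RNA of SCt cells green, from 15 μg each, on 4 two-colour arrays. The authors deposited, for each array, the output of Agilent Feature Extraction 10.5.1.1, in which a spot has median intensities and a local background, not normalized, and a log10 ratio of red over green after the software's own background and dye correction. They also deposited a series table of log2 ratios, whose direction is that of the software's ratios (93.0% to 95.9% of probes within 0.01 of them; column medians −0.02 to 0.02). The probe design refers to an earlier build (hg19), so no probe positions are given.

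In limma 3.58.1 (R 4.3.3), intensities went through normexp with an offset of 50, removal of 1377 control spots, exclusion of outlier spots (814 to 1168 per array; 0 were saturated), loess within arrays, and averaging of a probe's spots. Probes were kept that 1 channel showed well above background on 4 arrays, with values on at least 2 (28505 of 34127). The mean log2 ratio was tested against 0 with lmFit and eBayes and adjusted by Benjamini-Hochberg over these probes (1055 passed, 679 lower and 376 higher in SB cells). Since the offset shrinks the ratios of weak spots, sizes there are understated. Levels by channel were set with Aquantile. The number of arrays limits the precision.

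Accessions were matched to RefSeq (24826 of 34127 probes), and a gene was represented by its brightest kept probe. The rule for named genes was every probe of the 10 genes, AEG-1, their receptors, and any listed gene past the threshold. The genes and lists were chosen with earlier results of these data known, and the test of probe pairs, the search of promoters and the naming of CXCL6 and HNRNPD came after values were seen. IL15 and NFKB2 were not matched. The steps were tested on simulated data. Alternatives were other background corrections, normalizations, filters, variance models, the methods' t-test, the mean over probes and each array left out, and, added later, the dimmest kept probe. All other sequence steps were exact text matches or global alignments.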

Additional observations from a re-analysis of the deposited data

Results flagged for a closer look

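TNFAIP3, the NF-kB feedback gene named beside the chemokines, had 1 array far from the others. Its log2 ratios of SB over SCt cells were −0.60 on arrays 1, 2 and 3 and −0.11 on array 4. The gap between array 4 and its nearest neighbour made up 0.993 of their spread, beyond the limit of Dixon's test for 4 values. Among 31 named probes measured on 4 arrays this was the case for 1, and about 1 in 20 would by chance. Array 4 also gave the highest ratio of CXCL8 (−0.09) and CCL20 (−0.31), which are not beyond it.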

How the results depend on the processing

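CXCL1, CXCL2, CXCL8 and CCL20 stayed below 0 under all 17 alternatives, within −0.73 to −0.28, −0.85 to −0.16, −0.81 to −0.36 and −0.62 to −0.41 on the log2 scale. CXCL2 at its brightest probe was not called under median centring (−0.16), by the software's ratios (−0.28), in the series table (−0.28), by the methods' t-test or without array 2 or 3. Of the genes not called, CXCL5 turned to −0.037 without array 1 (with single arrays left out it reached 0.075, and under median centring 0.11), LIF at its brighter probe A_24_P233488 to 0.071 under median centring, 0.038 without array 1 and 0.0098 without array 2 (−0.083 without array 3), and CXCL6 to −0.12 under median centring, none of them past the threshold. With each array left out, the genes called of the 10 numbered 0 to 4, other cytokines 1 to 4, the NF-kB pathway 1 to 4, transcript decay 0 to 1, and all probes 204 (without array 3) to 1991 (without array 4), with 640 without array 1 and 431 without array 2.

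The 9 genes called in the other lists stayed below 0 under all 17 alternatives. CYLD, IL1B and LIFR lost their call by the methods' t-test alone, TNFAIP3 also without array 3, and LTB, CHUK, CLCF1, IKBKB and ZFP36 under 3 to 7 alternatives. Median centring called 8937 probes (3338 lower and 5599 higher) in place of 1055 (679 lower and 376 higher), 7 other chemokines, 9 other cytokines, 4 receptors and 2 STAT3 outputs. The series table called 698 probes, 2 genes of the NF-kB pathway and 0 of transcript decay, for which the dimmest probes gave 2. The methods' t-test called 0 probes, 0 of the 10 genes, 0 other cytokines, 0 receptors, 0 NF-kB genes and 0 decay genes, and AEG-1, at −3.18, had an adjusted p of 0.143. This test takes each probe's variance from its 4 arrays alone. As it called no probe at all, losing a call under it sets no gene apart. Normexp without an offset called 817 probes. Each ratio pairs the lines within an array, and all arrays lie on 1 slide, which leaves no slide effect to fit.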
